A study of Mus musculus with 15 samples.

Results

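Rab30, Esr1, Dmp1, Clec1b, Cyp2u1 and Pbx4 are 6 protein-coding genes, of 37620 gene identifiers counted. They were grouped as lying outside known endocrine gene programmes, which was not tested here. Each stood higher in the ileum of mice labelled as Rfx6 mutants than in controls. They were chosen by that difference at 8 days or 3 months after tamoxifen, so their mutant-control differences are given here as a description and carry no test. All 6 passed the filter on low counts in both cohorts.

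The study sequenced RNA of the ileum, the distal small intestine, from 15 adult mice, with libraries prepared by ribosomal RNA depletion per the labels' protocol although the molecule field reads polyA RNA. Animals labelled mutant were Rfx6f/f Vilin-CreERT2, with 2 loxP-flanked Rfx6 alleles and a Cre recombinase that tamoxifen activates, under the Villin promoter of the intestinal epithelium. Controls lacked the recombinase and were Rfx6f/f (3 libraries) at 8 days, and Rfx6f/f (2 libraries) or Rfx6f/+ (2 libraries) at 3 months. There were 4 libraries labelled mutant at each time, and all adult mice had been gavaged with 10 mg of tamoxifen in repeated doses over 5 days. Every group thus shared the loxP-flanked Rfx6 allele and the drug. Each library came from 1 animal, as far as the labels tell. In whole ileum, fewer cells of a type and less RNA per cell cannot be told apart.

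Library totals ran from 26078462 to 54468586 counts, so 3 counts stood at 0.0565 to 0.115 CPM (read counts scaled to TMM-adjusted library size), a floor that covers counting error only. Rfx6 itself showed no loss under the mutant label, at 1.47 to 2.1 CPM against 1.37 to 1.65 CPM in controls at 8 days and 2.26 to 3.33 against 1.46 to 1.74 CPM at 3 months. The counts are gene totals and do not resolve the deleted exons, and the groups are therefore called by their labels. The 5 ileal enterocyte markers (Fabp6, Slc10a2, Slc51a, Slc51b and Cubn) were all detected, with a summed level of 2019 to 5689 CPM per library. Markers of the proximal small intestine (Gata4, Fabp1, Lct, Cyp2b10 and Hsd17b6) summed to 450.4 to 999.2 CPM in the 8-day controls and to 636.6, 17.7, 866.2 and 24.8 CPM in mutant replicates 1 to 4 of 8 days, against 37.7 to 114 CPM at 3 months. By these markers mutant replicates 2 and 4 of 8 days stood apart from the other 8-day libraries, and by its effect on the count of called genes mutant replicate 1 did. The genes called at 8 days went from 16 to 200 without replicate 1 and to 15 without replicates 2 and 4. Leaving out replicates 2 and 4 gave 8-day log2 differences of 1.54 for Rab30, 0.90 for Esr1, 1.63 for Dmp1, 0.47 for Clec1b, 1.87 for Cyp2u1 and 1.39 for Pbx4, to be set beside the values from all libraries given for each gene.

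The 6 genes encode proteins of unlike kinds. Rab30 is a small GTPase of the Golgi apparatus whose transcript is known to be induced by fasting in liver through the nuclear receptor PPAR-alpha. Esr1 encodes oestrogen receptor alpha, a ligand-activated transcription factor, and Pbx4 a homeodomain protein of the TALE class that binds DNA with Hox and Meis partners. Cyp2u1 is a cytochrome P450 that hydroxylates long-chain fatty acids. Dmp1 is a secreted acidic phosphoprotein of the SIBLING family, best known from bone and tooth matrix. Clec1b encodes CLEC-2, a C-type lectin receptor for podoplanin best known from platelets.

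The Dmp1, Pbx4 and Lpar2 start-site windows are shown because Dmp1 had the largest 3-month log2 difference of the 6 and because Lpar2, the gene just upstream of Pbx4, had the expression profile nearest to Pbx4. Each holds 250 bases before and 50 after a RefSeq transcript start on GRCm38.p6, 5′ to 3′, in lower case with CACGTG E-boxes in capitals. All 3 lie on the plus strand, at chr5:104197325-104197624 (the first of 2 starts of Dmp1), chr8:69832374-69832673 (Pbx4) and chr8:69822315-69822614 (Lpar2).
Dmp1: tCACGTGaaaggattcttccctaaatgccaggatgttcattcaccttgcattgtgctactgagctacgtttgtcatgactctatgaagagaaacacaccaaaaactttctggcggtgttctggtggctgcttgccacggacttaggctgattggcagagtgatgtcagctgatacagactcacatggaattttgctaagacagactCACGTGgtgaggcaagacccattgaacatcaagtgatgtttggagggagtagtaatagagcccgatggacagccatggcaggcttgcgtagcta
Pbx4: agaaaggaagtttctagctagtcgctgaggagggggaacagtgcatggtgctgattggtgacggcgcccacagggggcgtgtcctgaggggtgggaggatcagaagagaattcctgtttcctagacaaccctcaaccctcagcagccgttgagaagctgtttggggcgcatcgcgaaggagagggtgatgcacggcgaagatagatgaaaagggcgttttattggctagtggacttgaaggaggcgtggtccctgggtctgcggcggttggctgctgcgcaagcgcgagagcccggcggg
Lpar2: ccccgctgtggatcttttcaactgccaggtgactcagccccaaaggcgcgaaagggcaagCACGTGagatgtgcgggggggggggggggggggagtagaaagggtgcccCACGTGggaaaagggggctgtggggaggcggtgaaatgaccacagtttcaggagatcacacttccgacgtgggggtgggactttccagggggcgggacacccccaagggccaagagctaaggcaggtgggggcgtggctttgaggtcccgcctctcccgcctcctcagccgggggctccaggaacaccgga

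RefSeq windows matched 4 of the 6 genes, with 2 starts each for Esr1 and Dmp1 and 1 each for Clec1b and Pbx4. Each window was searched on both strands for the RFX motif core GTTGCC, the nuclear receptor hexamer AGGTCA, the oestrogen response element GGTCANNNTGACC, the direct repeat AGGTCANAGGTCA and the E-box CACGTG, of which AGGTCA is part of the repeat and can overlap the response element, and CACGTG reads the same on both strands. The E-box occurred 2 times in the first Dmp1 window and 2 times in the Lpar2 window, and it is found in 7.15% of the 32851 RefSeq windows of this length. The other 4 motifs had no match in the windows searched, and Rab30 and Cyp2u1 had no window to search. These motifs occur in 12.5% (GTTGCC), 16.3% (AGGTCA), 0.0700% (response element) and 0.0396% (direct repeat) of all windows. A match describes these letters only.

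Cyp2u1 was the most abundant of the 6 and stood higher in the libraries labelled mutant at both times. Its 8-day levels were 18.7, 15.7 and 25.4 CPM in the controls and 78.8, 82.2, 66.9 and 58.5 CPM in the libraries labelled mutant. Its 3-month levels were 10.4, 7.69, 9.08 and 10.0 CPM in the controls and 61.3, 32.7, 47.9 and 57.4 CPM in the libraries labelled mutant. The groups did not overlap at either time, and the lowest library labelled mutant stood above every control of both cohorts. The ratio of the group means was 3.59 at 8 days and 5.35 at 3 months, and the fitted log2 differences were 1.84 (SE 0.18) and 2.43 (SE 0.20). The order of its group means was control at 3 months (9.31 ± 1.22 CPM, SD, n = 4), control at 8 days (19.9 ± 4.98, n = 3), mutant at 3 months (49.8 ± 12.7, n = 4) and mutant at 8 days (71.6 ± 10.9, n = 4), with the last 2 overlapping in their ranges. In the annotation, 548 bases of its exons (10.45%) are shared with the antisense gene 4930534D22Rik, and strand use in counting is not given in the sources used here.

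Rab30 differed little between the cohorts' controls and stood far higher in the libraries labelled mutant at 3 months than at 8 days. The 8-day controls measured 4.0, 5.36 and 5.54 CPM and the 8-day libraries labelled mutant 19.2, 5.95, 9.80 and 7.96 CPM. In the later cohort the controls measured 6.01, 7.05, 6.13 and 5.85 CPM and the libraries labelled mutant 38.0, 28.6, 42.4 and 42.6 CPM. The 3-month groups lay far apart, while at 8 days the lowest library labelled mutant, replicate 2, was only just above the highest control. The log2 difference was 2.61 (SE 0.14) at 3 months, with a ratio of means of 6.05. At 8 days it was 1.10 (SE 0.37), and it was 0.66 without mutant replicate 1, the highest of its group.

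Esr1 had nearly the same level in the libraries labelled mutant of both cohorts. Esr1 measured 5.45, 6.04 and 7.22 CPM in the controls and 10.6, 13.8, 12.7 and 13.3 CPM in the libraries labelled mutant of 8 days. The 3-month values were 3.48, 3.29, 3.37 and 3.55 CPM in the controls and 13.4, 13.1, 11.7 and 11.2 CPM in the libraries labelled mutant. No group of controls overlapped a group labelled mutant, and the 3-month controls had the smallest relative spread of all groups of the 6 genes (coefficient of variation 3.28%). The means in the libraries labelled mutant were 12.6 ± 1.38 CPM (SD, n = 4) at 8 days and 12.3 ± 1.09 CPM (SD, n = 4) at 3 months. The log2 difference from controls was 1.01 (SE 0.14) at 8 days and 1.86 (SE 0.10) at 3 months.

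Pbx4 had differences of like size at both times, but at 3 months the difference rested on 1 library. The 8-day values were 2.41, 1.95 and 2.07 CPM in the controls and 5.24, 5.29, 5.99 and 4.6 CPM in the libraries labelled mutant, 2 groups well apart. For 3 months the values were 1.16, 1.62, 0.575 and 1.45 CPM in the controls and 6.67, 1.63, 1.76 and 2.15 CPM in the libraries labelled mutant. Mutant replicate 1 of that cohort was far above the other 3, and replicate 2 was level with the highest control. The log2 difference was 1.30 (SE 0.15) at 8 days and 1.35 (SE 0.51) at 3 months, and without mutant replicate 1 it was 0.63 at 3 months.

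Dmp1 had the highest positive 3-month log2 difference among the 17085 genes tested, a rank that rests on controls of 1 to 9 reads. The 3-month controls had 1, 7, 2 and 9 reads, and the 3-month libraries labelled mutant had 146, 71, 264 and 126. The mean level was 0.159 ± 0.127 CPM (SD, n = 4) in controls and 4.52 ± 1.87 CPM (SD, n = 4) in the libraries labelled mutant, and the log2 difference was 4.79 (SE 0.52). Every library labelled mutant lay far above every control. In the 8-day cohort it measured 0.759, 0.522 and 0.452 CPM in the controls and 2.48, 0.399, 1.02 and 0.932 CPM in the libraries labelled mutant, and the groups overlapped. The 8-day log2 difference was 1.09 (SE 0.56), and 0.44 without mutant replicate 1, the same library that was highest for Rab30.

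Clec1b was lowest in the 3-month controls and at like levels in the other 3 groups. Clec1b measured 2.41, 1.40 and 2.11 CPM in the controls and 2.62, 2.30, 2.87 and 2.80 CPM in the libraries labelled mutant of 8 days, with overlap between the groups. In 3-month libraries it measured 0.137, 0.275, 0.153 and 0.344 CPM in the controls, from 4 to 10 counts, and 1.64, 1.79, 2.72 and 1.77 CPM in the libraries labelled mutant. The mean in the 3-month libraries labelled mutant (1.98 ± 0.499 CPM, SD, n = 4) was level with that in the 8-day controls (1.97 ± 0.518 CPM, SD, n = 3). The log2 difference was 0.42 (SE 0.20) at 8 days and 3.11 (SE 0.31) at 3 months.

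**Figure D1:**
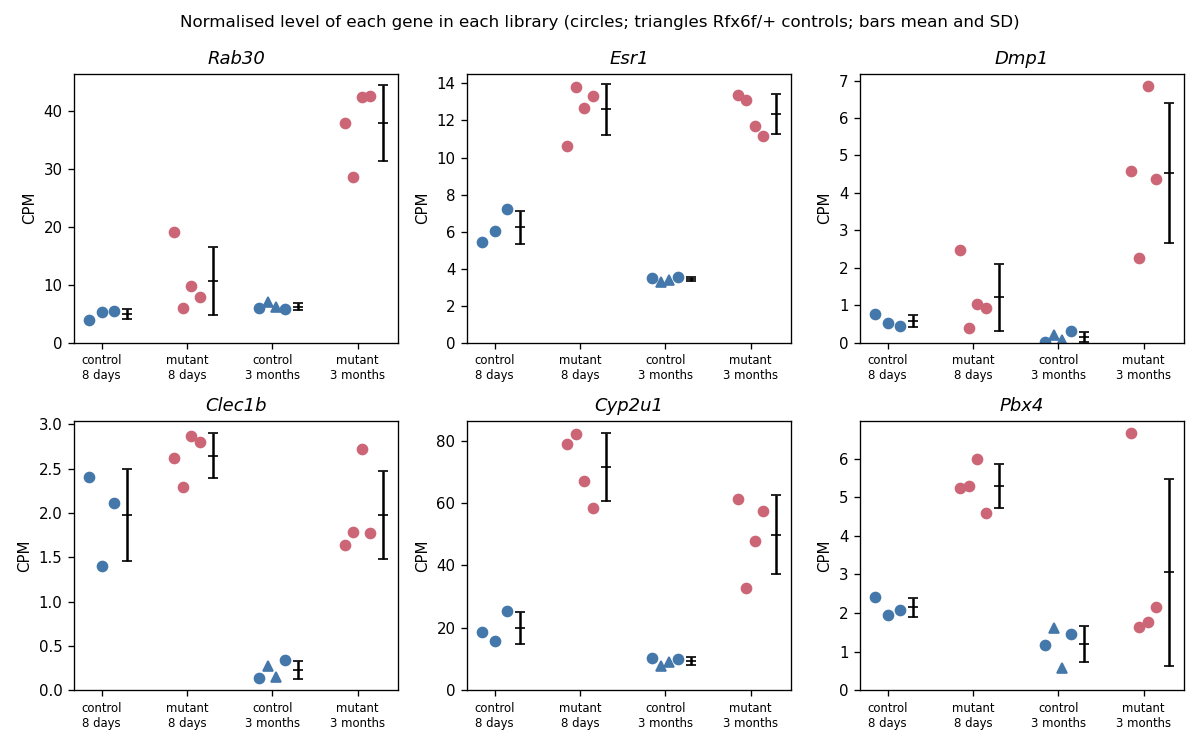
CPM (linear axes from 0) of the 6 genes in each of 15 libraries, grouped by label and time. Points are libraries, triangles are Rfx6f/+ controls, and black bars give the mean and SD. Esr1 in the libraries labelled mutant stays near 12 CPM at both times, while Clec1b in controls goes from 1.97 to 0.227 CPM.

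At 8 days 2 of the 6 genes, Cyp2u1 and Pbx4, passed an adjusted p of 0.05 in the direction of higher in mutant, and at 3 months 5 did, Pbx4 being the exception. Over all genes 0.0915% of 17493 were called at 8 days (0.0343% higher) and 9.28% of 17085 at 3 months (4.96% higher). Leaving out 1 library in turn left 0 of the 6 called at 8 days without control replicate 1, 1 without control replicate 2 or 3 or mutant replicate 2 or 3, and 3 without mutant replicate 1, and leaving out mutant replicates 2 and 4 together left 1, while at 3 months it left 5 each time and Rfx6f/f controls only left 3. The groups did not overlap, with the libraries labelled mutant higher, for 4 of the 6 at 8 days and 6 of 6 at 3 months, against 3.98% and 8.76% of all genes tested (3.7% and 10.6% with the libraries labelled mutant lower). As these values chose the genes, nothing is read from the shares. The fitted difference between the effects at 3 months and at 8 days was 3.69 (SE 0.85) for Dmp1, 2.67 (SE 0.37) for Clec1b, 1.49 (SE 0.40) for Rab30, 0.84 (SE 0.16) for Esr1, 0.58 (SE 0.28) for Cyp2u1 and 0.03 (SE 0.56) for Pbx4 on the log2 scale. These differences were not tested, since both effects entered the choice of the genes.

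**Figure D2:**
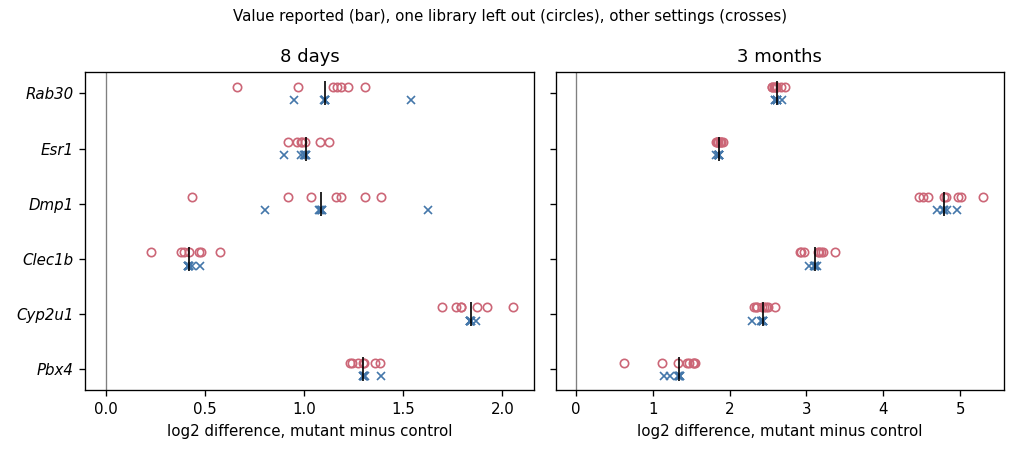
Log2 difference (mutant minus control) of each of the 6 genes at 8 days and 3 months: the value reported (bar), with each library left out in turn (circles), and in the other settings (crosses). All values are above 0. At 8 days the lowest circles of Rab30 (0.66) and Dmp1 (0.44) are the fits without mutant replicate 1, and at 3 months the lowest circle of Pbx4 (0.63) is the fit without mutant replicate 1.

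Scaled to exon length, the 6 genes spanned a wide range of levels. In 3-month controls the mean CPM per kilobase of annotated exon was 1.78 ± 0.233 for Cyp2u1, 0.649 ± 0.0557 for Rab30, 0.541 ± 0.206 for Pbx4, 0.251 ± 0.00822 for Esr1, 0.0574 ± 0.0458 for Dmp1 and 0.0445 ± 0.0195 for Clec1b (SD, n = 4 each). Rab30 and Pbx4, and likewise Dmp1 and Clec1b, did not differ beyond their spread. In the 3-month libraries labelled mutant Dmp1 stood at 1.64 ± 0.676 CPM per kilobase, after Cyp2u1 (9.51 ± 2.43) and Rab30 (3.93 ± 0.682) and level within its spread with Pbx4 (1.38 ± 1.09). The lengths come from GENCODE M21, which need not match the annotation used for counting.

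The control groups of the 2 cohorts were also set side by side. Both entered the contrasts that chose the 6 genes, and a gene with low 3-month controls was more likely to be chosen, so their difference is a description without a test. The log2 difference of 3-month minus 8-day controls was -3.08 (SE 0.30) for Clec1b, -1.79 (SE 0.71) for Dmp1, -1.10 (SE 0.21) for Cyp2u1, -0.87 (SE 0.12) for Esr1, -0.82 (SE 0.44) for Pbx4 and 0.33 (SE 0.30) for Rab30. In all of these genes but Rab30, every 3-month control was below every 8-day control. Over all 17959 genes in this comparison 45.1% were called (23% higher and 22.1% lower at 3 months), and nothing is read from the count of the 6. Time after tamoxifen and cohort cannot be told apart here. Markers of the proximal small intestine also differed between these controls, with sums of 450.4 to 999.2 CPM at 8 days and 37.7 to 92.2 CPM at 3 months. Their part in the differences of the 6 genes was not tested.

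**Figure D3:**
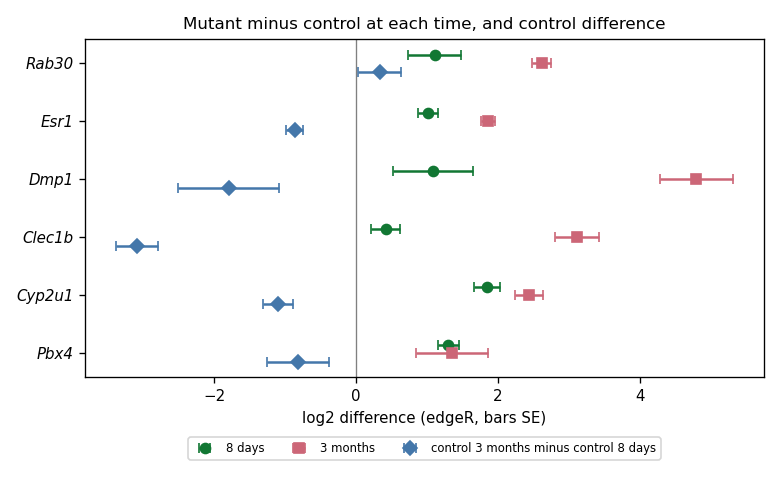
Fitted log2 differences (x axis, bars SE) of the 6 genes: mutant minus control at 8 days (circles) and 3 months (squares), and control at 3 months minus control at 8 days (diamonds). The squares and the diamonds share the 3-month controls, with opposite sign, so a low value there moves them apart. The diamonds lie from -3.08 (Clec1b) to 0.33 (Rab30).

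Within the 3-month controls, the 2 Rfx6f/+ libraries were set against the 2 Rfx6f/f libraries. This contrast of genotypes did not enter the choice of genes, but the same libraries formed a control group that did. Genes whose controls varied little may have been more likely to be chosen, so nothing is read from the lack of calls among the 6. None of the 6 genes passed, with log2 differences of Rfx6f/+ minus Rfx6f/f from -0.30 (SE 0.27) for Cyp2u1 to 0.14 (SE 0.20) for Rab30 and adjusted p from 0.842 to 0.978 (edgeR quasi-likelihood test). None of the 6 had an unadjusted p under 0.05 either, the lowest being 0.290 for Cyp2u1. The SE was 1.07 for Dmp1, 0.79 for Pbx4 and 0.58 for Clec1b. Over all 17780 genes 0 were called, 0%, with 1220 at an unadjusted p under 0.05 and 48 called by DESeq2.

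Deviations from the group means were compared between genes over the 15 libraries, which shows whether animals of 1 group that were high for one gene were high for another. Of the 15 pairs none passed after adjustment over the pairs. The lowest adjusted p for Pearson's r, 0.131, was shared by Rab30 with Dmp1 (r = 0.67, permutation p 0.0261, Spearman's rho 0.54, permutation p 0.0593), Dmp1 with Clec1b (r = 0.66, permutation p 0.0134, rho 0.65, permutation p 0.0251) and Esr1 with Dmp1 (r = -0.57, permutation p 0.0255, rho -0.59, permutation p 0.0236). The lowest adjusted p for rho was 0.188. Without the 2 libraries farthest from the median of the first gene, r was 0.29, 0.80 and -0.45, so the relation of Rab30 with Dmp1 rested on those libraries.

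For each of the 6 genes the most similar profiles were sought among about 13453 named genes, by the root-mean-square (RMS) difference of mean-centred log2 CPM over the 15 libraries. Cyp2u1 was nearest to Fbp1 (RMS 0.46), the gluconeogenic fructose bisphosphatase, to Sis (0.48), the brush-border sucrase-isomaltase, and to Esr1 (0.49), while its own spread about its mean was 1.20. Esr1 was nearest to Mlxipl (0.35), which encodes the carbohydrate-responsive factor ChREBP, and Pcdh19 (0.37), a protocadherin, with an own spread of 0.80. Rab30 was nearest to Mmp9 (0.48), a secreted gelatinase, Chgb (0.52), a granin of endocrine granules, and Tph1 (0.54), the serotonin-synthesis enzyme, with an own spread of 1.19. Enteroendocrine markers (Chga, Chgb, Neurod1, Scg2 and Cpe), which include Chgb, summed to 153 to 202 CPM in 3-month controls and 336 to 448 CPM in libraries labelled mutant, against 124 to 187 CPM at 8 days. Chgb (a mean of 67.0 against 227 CPM at 3 months) and Chga (31.2 against 92.5 CPM) carried that difference, while Scg2 (21.1 against 17.1 CPM) and Cpe (46.3 against 45.7 CPM) did not, and their part in the Rab30 difference was not tested. Dmp1 had no close match, its nearest being Stxbp5l (0.98), Apoa4 (1.01) and Rab30 (1.01) against an own spread of 1.81. For Clec1b the nearest were Abcc2 (0.65), a conjugate exporter, Rdh7 (0.69), a retinol dehydrogenase, and Atp1b2 (0.73) against 1.39. The likeness is a description over libraries that share the mutant and cohort differences.

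Pbx4 was nearest to Lpar2 (RMS 0.34), which encodes a lysophosphatidic acid receptor, ahead of G6pc (0.44) and Slc22a3 (0.44), against an own spread of 0.95. Lpar2 is also the neighbour of Pbx4, on the same strand of chromosome 8 with 1388 bases between the annotated genes. At 8 days Lpar2 measured 2.74, 2.25 and 3.13 CPM in the controls and 5.34, 5.09, 7.86 and 5.43 CPM in the libraries labelled mutant. At 3 months it measured 1.16, 2.96, 1.34 and 1.76 CPM in the controls and 5.63, 1.73, 2.15 and 2.71 CPM in the libraries labelled mutant. In both genes mutant replicate 1 was the highest 3-month library. For Lpar2 the 8-day groups did not overlap, but neither comparison passed over all genes (log2 difference 1.12, SE 0.20, edgeR quasi-likelihood adjusted p 0.164 at 8 days, and 0.76, SE 0.42, adjusted p 0.254 at 3 months). The neighbour beyond it, Gmip, had log2 differences of 0.36 (adjusted p 0.508) and 0.17 (adjusted p 0.186).

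**Figure D4:**
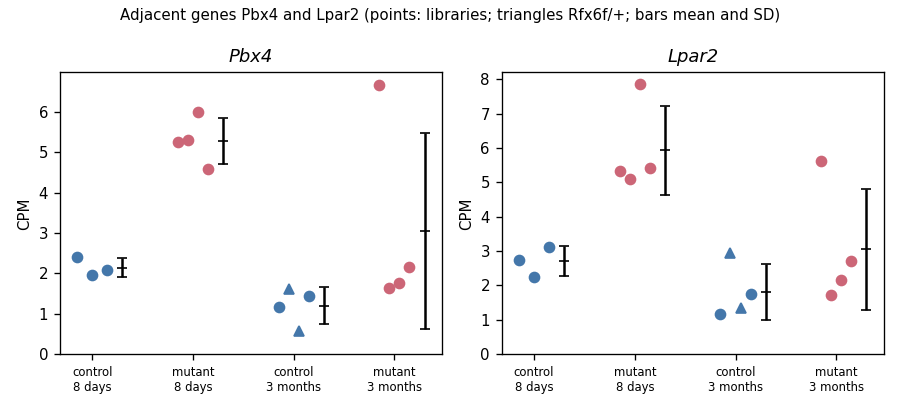
CPM of the adjacent genes Pbx4 (left) and Lpar2 (right) in each library by group, with Rfx6f/+ controls as triangles and the mean and SD as bars. In both panels mutant replicate 1 of 3 months, at 6.67 and 5.63 CPM, stands above the rest of its group.

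The 24 nearest protein-coding neighbours of the 6 genes, 4 for each, were tested to see whether the differences extended to flanking genes. None of the 19 tested at 8 days or the 18 tested at 3 months passed, by edgeR's quasi-likelihood test. Of these, 7 and 4 had an unadjusted p under 0.05, against 1540 of 17493 and 5018 of 17085 genes overall. The 7 (Prcp, Clec12a, Hadh, Lef1, Sgms2, Lpar2 and Gmip) and the 4 (Ankrd42, Sparcl1, Ibsp and Hadh) were all higher in the libraries labelled mutant. Over all genes 0.0915% were called at 8 days and 9.28% at 3 months. With so few calls at 8 days, the lack of one there does not show that flanking genes were unchanged. For Dmp1 the flanking SIBLING genes were sparse: Dspp had at most 2 counts in any 3-month library and Mepe none. Ibsp, which encodes bone sialoprotein, measured 0.819, 0.488, 0.690 and 0.207 CPM in 3-month controls and 1.04, 0.320, 2.62 and 3.61 CPM in libraries labelled mutant, overlapping groups with a log2 difference of 1.80 (SE 0.68, adjusted p 0.119). Without mutant replicate 2, the library labelled mutant in which Ibsp and Dmp1 were both lowest, Ibsp was called higher. Outside these 24, Clec9a, a dendritic cell lectin that overlaps Clec1b and shares 184 exon bases (3.61% of those of Clec1b) on the same strand, was higher at 3 months, with a log2 difference of 1.09 (SE 0.20, adjusted p 0.0192). It measured 1.30 to 2.45 CPM in controls and 3.59 to 4.67 CPM in libraries labelled mutant. How the authors' counting split reads of the shared bases is not given in the sources used here.

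Genes with roles close to those of the 6 were taken from 10 lists and tested over all genes. At 8 days none of 162 list genes passed by edgeR's quasi-likelihood test in either direction, with 23 at an unadjusted p under 0.05, and 0.0572% of all genes were called lower. Without mutant replicate 1 of 8 days, 1 Rab gene and 1 gene of the SIBLING and phosphate list were called higher. At 3 months the share called over all genes was 4.96% higher and 4.32% lower, and the median of all genes was 0.01 on the log2 scale. Of the 27 list genes called at 3 months, 10 were called with any 1 library left out (among them Creb3l3, Plin2, Ncoa1, Mmp9, Por, Cyp4f16, Cyp2j6, Ptgs1 and Rab19) and 17 were lost in at least 1 such fit. Of those 17, all but Clec9a were lost without control replicate 3. With the Rfx6f/f controls only, which left 36 calls over all genes, Creb3l3 and Mmp9 were the list genes still called.

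Among 28 tested Rab GTPases of Golgi and secretory traffic, 1 rose and 1 fell at 3 months, with a list median of -0.02. Rab3c, a vesicle Rab of regulated secretion, rose by 0.80 (SE 0.18, edgeR adjusted p 0.0323), a call lost without mutant replicate 1 or 3 or control replicate 1, 2 or 3, and Rab19 changed by -1.14 (SE 0.18, adjusted p 0.0103). Without mutant replicate 2, Rab27b was called higher as well. Of 16 tested fasting targets of PPAR-alpha, the receptor included, 5 rose and none fell, with all 16 positive and a median of 0.69. They included the transcription factor Creb3l3 (1.74, SE 0.13, adjusted p 0.000555), the lipid droplet protein Plin2 (0.78, adjusted p 0.0143), and the mitochondrial fatty acid import genes Slc25a20 (0.63, adjusted p 0.0301) and Cpt1a (0.55, adjusted p 0.0409). The receptor gene Ppara had a difference of 0.44 (adjusted p 0.208). Across the fits with 1 library left out or Rfx6f/f controls only, 1 to 6 of the list were called. Slc25a20 was lost without control replicate 1, 2 or 3 or mutant replicate 3. Cpt1a was called in only 2 of the 8 fits with 1 library left out, those without mutant replicate 2 or 4.

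Beside Esr1, none of the 8 other steroid and oestrogen-related receptor genes tested at 3 months passed or had an unadjusted p under 0.05, and their median was 0.06. Esr2, which encodes oestrogen receptor beta, was below the filter at 3 months with at most 16 counts, and the oestrogen-inducible receptor Pgr measured 0.328 against 0.391 CPM. Of 15 coregulators and targets, 3 rose and 2 fell, with a median of 0.23. The risers included the oestrogen target Greb1, by 0.41 (adjusted p 0.0309), and the coactivator Ncoa1, by 0.33 (adjusted p 0.0120), while Ccnd1, which encodes cyclin D1, fell by 0.70 (adjusted p 0.0347) and Myb by 0.31 (adjusted p 0.0256). The risers called ranged from 0 to 3 and the falls from 0 to 3 over those alternatives, and both falls were lost without control replicate 1, 2 or 3. Greb1 was called in only 1 of the 8 fits with 1 library left out.

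Among 16 tested genes of a list of SIBLING, phosphate and related genes 1 rose at 3 months. It was Mmp9, a secreted gelatinase and not itself a SIBLING or phosphate gene. Its log2 difference was 2.34 (SE 0.23, edgeR adjusted p 0.00209), with 7.56 against 37.9 CPM. The list median was 0.35. There were 3 calls without mutant replicate 2 (Mmp9, Ibsp and Spp1) and 3 without control replicate 4 (Mmp9, Ank and Bmp1), and 1 in each of the other fits run. The osteopontin gene Spp1 had a difference of 1.36 (adjusted p 0.0680) and the intestinal phosphate transporter Slc34a2 one of -0.10 (adjusted p 0.759). Markers of osteoblasts and osteocytes beside Dmp1 (Bglap, Bglap2, Sp7, Runx2, Ibsp, Phex and Sost) summed to 4.89 to 7.70 CPM in 3-month controls and 8.89 to 11.6 CPM in libraries labelled mutant. Bglap2 was at 0 in every library, and Bglap, Sp7 and Sost stood at a mean of under the floor of 3 counts in each group. Of the 3 tested, Runx2 rose, by 0.55 (adjusted p 0.0393).

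Of 16 tested genes for the CLEC-2 ligand and its signalling, none rose and 3 fell at 3 months, with a median of -0.35. These were the adaptor Lat (-1.23, SE 0.24, adjusted p 0.0222), the kinase Lyn (-0.74, adjusted p 0.0192) and the exchange factor Vav1 (-0.57, adjusted p 0.0442), all also used in lymphocytes. Vav1 was lost without mutant replicate 1, 2 or 3 or control replicate 1, 2 or 3, Lyn without control replicate 1, 2 or 3, and Lat without mutant replicate 1 or control replicate 2 or 3. The falls called ranged from 0 to 4 over the fits run, with Tec, Grap2 or Ptpn6 joining in 1 fit each. T cell markers (Cd3d, Cd3e, Cd3g, Cd4 and Cd8a) summed to 65.0 to 80.1 CPM in 3-month controls and 26.5 to 55.1 CPM in libraries labelled mutant, and their part in these falls was not tested. The ligand gene Pdpn had a difference of 0.44 (adjusted p 0.182). Of the 12 tested C-type lectin genes of the region, Clec2e (1.33, SE 0.24, adjusted p 0.0170), Clec9a and Clec7a (0.82, adjusted p 0.0151) rose and Clec2d fell by 0.36 (adjusted p 0.0456). Among the fits with 1 library left out, the fall of Clec2d was called only without mutant replicate 2, where Klrd1 was called lower too, and Clec2e was lost without control replicate 1, 2 or 3, while Clec7a was lost without control replicate 3 and Clec9a without control replicate 2.

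Platelet and megakaryocyte markers were set beside Clec1b. Their 10 genes summed to 57.2 to 64.1 CPM in 3-month controls and 58.6 to 77.7 CPM in libraries labelled mutant, a sum made mostly of Gp1bb and Itgb3. Pf4, platelet factor 4, rose at 3 months by 1.19 (adjusted p 0.0366), from 1.76 to 3.27 CPM in controls to 4.06 to 8.74 CPM in libraries labelled mutant. Itga2b, which encodes the platelet integrin CD41, had a mean of 2.19 CPM in 3-month controls and 2.78 CPM in libraries labelled mutant, with a difference of 0.36 (adjusted p 0.428). The other 6 markers, Ppbp, Gp1ba, Gp9, Gp6, Treml1 and Tubb1 were at or near 0, with group means of 0.141 CPM or less, and were below the filter. Treml1 had no counts in 3 of the 4 groups.

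Of 21 tested fatty acid and arachidonate oxygenases and their partners, 6 rose and none fell at 3 months, with a median of 0.40. The 4 with the smallest p were Por, the reductase that supplies electrons to microsomal P450 enzymes (1.20, SE 0.12, adjusted p 0.00185), Cyp4f16 (1.5, SE 0.19, adjusted p 0.00606), the epoxygenase-family gene Cyp2j6 (1.16, SE 0.18, adjusted p 0.0103) and the cyclooxygenase gene Ptgs1 (0.70, SE 0.11, adjusted p 0.0109). These 4 were called with any 1 library left out, and 4 to 7 of the list were. Among the partners of Pbx4, 1 of 11 TALE genes rose, Meis3 by 0.56 (adjusted p 0.0376), a call lost in 6 of 8 fits with 1 library left out, and none of 14 tested Hox genes passed in either direction or had an unadjusted p under 0.05. Pbx2 (-0.03, adjusted p 0.772) and Pbx3 (0.12, adjusted p 0.494) had small differences and stood at 28.4 and 11.5 CPM in 3-month controls, where Pbx4 stood at 1.20 CPM.

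**Figure D5:**
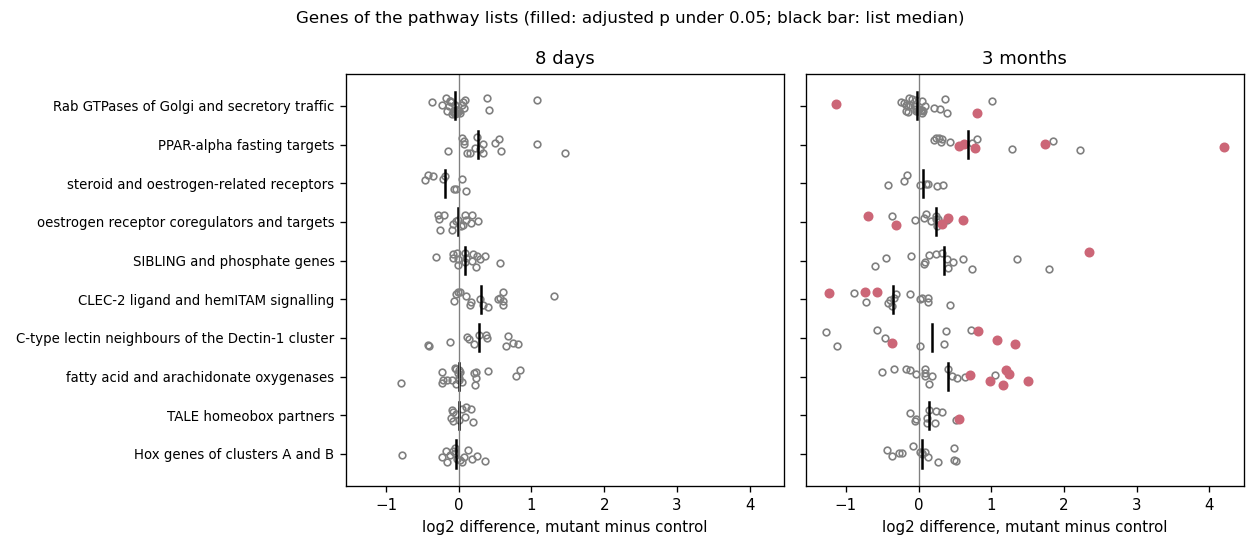
Log2 differences (mutant minus control) of the tested genes in 10 lists at 8 days (left) and 3 months (right). Filled points passed an adjusted p of 0.05, open points did not, and black bars are list medians. No list gene passed at 8 days, and at 3 months the PPAR-alpha targets and the oxygenases have 5 and 6 filled points, all above 0.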

How the data were processed

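The authors deposited 1 table of raw counts for each cohort, with Ensembl genes in rows and animals in columns. Per the submitters' processing notes, bcl2fastq 2.17.1.14, Bowtie 1.0.0, TopHat2 2.0.10, Bowtie2 2.1.0 and HTSeq 0.6.1 were used with build mm9. The counting mode, strand handling and annotation release are not given in the sources used here. The labels allow 2 RNA extraction methods without saying which animal had which. GENCODE M21 named 87.45% of the identifiers and gave exon lengths and neighbours. Sequences are RefSeq's, on GRCm38.p6, so no coordinate comes from the count tables.

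Each time was fitted alone with edgeR 4.0.16 (R 4.3.3): filterByExpr (minimum count 10), TMM scaling, quasi-likelihood F test and Benjamini-Hochberg adjustment over all genes tested. All tests are two-sided. Control groups were compared in a fit of all 15 libraries (planned as a test of the 6 genes, but given without one since these controls entered their choice), and control genotypes in a fit of the 3-month libraries. CPM use TMM over all 15 libraries and log2 CPM a prior count of 2. Deviations from group means were permuted within groups 100000 times. The lowest chi-square per degree of freedom between 2 libraries of a group was 11.2, so each library counted as 1 replicate. The labels do not say whether these came from separate litters.

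The text names the 6 genes, Rfx6, neighbours, the 3 nearest profiles and, per list, up to 4 called genes with the smallest p. Ppara, Pgr, Esr2, Spp1, Slc34a2, Pdpn, Pbx2, Pbx3, Runx2 and further PPAR-alpha and oestrogen targets are outside that rule, named with their values known. The genes and lists were chosen with earlier results of these data known. Alternatives were DESeq2 1.42.0, limma-voom (limma 3.58.1), RLE scaling, 2 other filters, other sets of libraries and each library left out. The test was first checked on simulated data. Ccl21a had no identifier. Some genes that this rule names are not reported here.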

Additional observations from a re-analysis of the deposited data

Results flagged for a closer look

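Of 21 checks for a library far from the other 3 of its group, 3 did, where chance alone flags about 1 in 20, or 1.05 here. All were in libraries labelled mutant of 3 months. Clec1b measured 2.72 CPM in replicate 3 against 1.64 to 1.79 CPM in the others, and Pf4 was also highest there. Pbx4 measured 6.67 CPM in replicate 1 against 1.63 to 2.15 CPM. Rfx6 measured 3.33 CPM in replicate 1 against 2.26 to 2.31 CPM.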

How the results depend on the processing

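All 6 genes stayed higher in the libraries labelled mutant at both times in every fit that gave a value, with log2 differences from 0.23 (Clec1b, 8 days) to 5.30 (Dmp1, 3 months). The count of genes called did move. At 8 days it was 16, and 178 with DESeq2, 27 with no filter and 25 in a joint fit of all libraries. Leaving out 1 library gave 8 to 200, with 8, 8 and 10 without control replicates 1, 2 and 3, and 200 (90% higher, against 37.5%) without mutant replicate 1. Leaving out mutant replicates 2 and 4 together, chosen after seeing the data, gave 15. At 3 months it was 1586, and 2983 with DESeq2 and 36 with Rfx6f/f controls only (63.9% higher, against 53.5%). Leaving out 1 library gave 391 to 1521, with 400, 412 and 391 without control replicates 1, 2 and 3, and 856 and 768 without mutant replicates 1 and 3. Between control genotypes it was 0, 48 with DESeq2, and 0 to 2 with a library left out, where the lone library is assumed to vary like the rest. Between the control groups it was 8093, and 5197 with Rfx6f/f controls only. Fewer libraries were compared in the fits with Rfx6f/f controls or a library left out, and for the other settings the cause was not tested. With at least 10 counts in every library Dmp1 and Clec1b were not fitted at 3 months. No paired analysis was possible because the labels pair no mutant animal with a control. Counts of 1 to 10 limit Dmp1 and Clec1b in 3-month controls.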

Other observations

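Of 90 tested markers of gut cells and other cell types, 18 were called at 3 months and none at 8 days (edgeR quasi-likelihood test), where 14 had an unadjusted p under 0.05. Of 5 ileal enterocyte markers 2 fell at 3 months: Fabp6, the ileal bile acid binding protein, by 1.44 in log2 (adjusted p 0.00873), and Slc51b, a subunit of the basolateral bile acid exporter, by 0.70 (adjusted p 0.00613). Slc10a2 (-0.55, adjusted p 0.188), Slc51a (-0.37, adjusted p 0.134) and Cubn (0.71, adjusted p 0.261) did not pass. The smallest p among the markers belonged to 2 of the 5 enteroendocrine markers, Chga, which rose by 1.58 (SE 0.09, adjusted p 8.85e-05), and Chgb, which rose by 1.78 (SE 0.15, adjusted p 0.000798), while Neurod1 had a difference of 0.73 (adjusted p 0.0785), Scg2 of -0.29 (adjusted p 0.224) and Cpe of -0.0041 (adjusted p 0.989). Of 6 fibroblast markers Pdgfra rose by 0.64 (adjusted p 0.0217) and Pdgfrb by 0.54 (adjusted p 0.0159), and the other 4 ran from -0.04 (Dcn) to 0.60 (Col1a1) without passing. Of 4 adipocyte markers Cidec rose by 1.59 (adjusted p 0.00915), with Adipoq at -0.20, Plin1 at -0.02 and Lep at -0.96 not passing. Of 5 crypt and proliferation markers Top2a fell by 0.34 (adjusted p 0.0377), and the other 4 ran from -0.36 (Ascl2) to 0.06 (Lgr5) without passing, with Mki67 at -0.02. Blood endothelial genes had 3 of 6 higher, Cdh5, Kdr and Emcn, and T cell genes 3 of 5 lower, Cd3d, Cd3g and Cd8a. The other called markers, all higher, were Csf1r (1 of 9 macrophage and dendritic markers), Flt4 (1 of 5 tested lymphatic markers), Pf4 and Runx2. Pancreatic acinar genes summed to 0.459 to 183 CPM in 8-day and 19.6 to 1102 CPM in 3-month libraries, with the highest value in control replicate 4, and none of the 5 genes passed or had an unadjusted p under 0.05 at either time. B cell genes summed to 12.4 to 36.7 CPM in 8-day controls, and to 15.6 CPM in mutant replicate 1 against 85.9 to 201 CPM in the other 8-day libraries labelled mutant. At 3 months the means lay the other way, at 106 CPM in controls (from 70.3 CPM) and 41.4 CPM in libraries labelled mutant (up to 94.9 CPM), overlapping ranges, and none of the 4 genes passed at either time.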
